A study of Mus musculus with 12 samples.

Results

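The genes described here changed in the same direction with the inhibitor MGH-CP1 (CP1) in both genotypes and at both treatment times of this experiment. CP1 blocks the palmitoylation of TEAD proteins. A gene was a member when the mean of its CP1 effects in DKO and WT cells, from 8 CP1 and 4 DMSO libraries, passed an adjusted p of 0.05 in edgeR and its CP1 effect had 1 sign in each of the 4 combinations of genotype and day. Of 16595 genes tested, 6957 (41.9%) were called for the mean effect (19.3% higher and 22.6% lower with CP1), and 3415 of these (20.6% of all tested) were members. They comprised 1723 genes higher with CP1 (10.4%) and 1692 lower with CP1 (10.2%). The 32168 genes of the deposited table include 15573 that did not pass the filter on low counts and were not tested.

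The cells were mouse embryonic fibroblasts from E13.5 embryos, at passages that the labels give only as a span. DKO cells lack the Hippo kinases LATS1 and LATS2, and WT cells carry both genes. Each genotype had 2 libraries with 1 µM CP1 for 4 days, 2 libraries with 1 µM CP1 for 2 days, 1 library with DMSO for 4 days and 1 library with DMSO for 2 days, 12 in all. The labels do not say whether the repeats are separate cultures, or whether the DKO cells are 1 line or several, so p-values measure the spread between these libraries. Each CP1 effect of a genotype at a day rests on 1 DMSO library.

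The Hippo kinases phosphorylate the co-activators YAP and TAZ and keep them out of the nucleus. In the nucleus YAP and TAZ have no DNA-binding domain of their own and act through TEAD proteins, whose lipid pocket carries a palmitate. LATS1 and LATS2 act upstream of this step, whereas an inhibitor of the TEAD pocket acts downstream of it. Target genes such as Ccn2, Ankrd1 and Amotl2 are commonly used to read TEAD output in fibroblasts.

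Library totals ran from 16970834 to 25299262 counts. Lats1 stood at 31.2% to 35.6% of the WT DMSO mean in DKO CP1 libraries, against 14.3% and 22.1% in DKO DMSO libraries, and Lats2 stood at 26.3% to 31.1% of that mean in all 6 DKO libraries. Several libraries stood apart. Ribosomal RNA and miRNA genes took 3.08%, 2.61% and 2.51% of the reads in 3 of the 4 WT CP1 libraries (repeat 1 of 2 days and both of 4 days), against 0.0402% to 0.0424% in the other WT libraries and 0.14% to 0.279% in DKO libraries. Levels are given as counts scaled to library size (CPM). Xist, the RNA of the inactive X chromosome, had 781 to 969 CPM in DKO CP1 libraries, against 368 CPM in the DKO DMSO library of 4 days and 41.0 CPM in that of 2 days, while WT libraries had 1095 to 1273 CPM. DKO cells also had little of the fibroblast markers Thy1 (0.167 to 1.23 CPM in CP1 and 0 in DMSO libraries, 123 to 139.7 and 119 to 121 CPM in the same WT groups) and Dcn (42.8 to 111 CPM in CP1 and 1.04 to 1.91 in DMSO libraries of DKO cells). They did hold Col1a1, Col1a2, Vim and Twist1, with Twist1 at 239 to 257 CPM in DKO CP1 and 200.04 to 210.2 CPM in DKO DMSO libraries. Whether the DKO CP1 and DKO DMSO libraries came from the same stock of cells is not stated, so such a difference and CP1 cannot be told apart in DKO cells. The 2 WT DMSO libraries differed from each other (chi-square per degree of freedom 1.95) by less than any pair of CP1 repeats (2.25 to 50.6). The 2 DKO DMSO libraries, on which the DKO baseline rests, differed by a value of 43.8 and had the lowest correlation of log2 CPM across genes (0.988). In bulk libraries such as these, fewer cells of a type and less RNA per cell cannot be told apart.

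The median absolute log2 fold change over members was 0.64 in DKO and 0.29 in WT cells. Among the genes higher with CP1 the medians were 0.62 in DKO cells at 4 days, 0.95 in DKO cells at 2 days, 0.30 in WT cells at 4 days and 0.32 in WT cells at 2 days. For those lower with CP1 they were -0.46, -0.60, -0.22 and -0.25 in the same order, and over all tested genes the median of the mean effect was 0.01. These values describe what chose the members and were not tested further. A sign alone is a weak condition, since 26.0% of all tested genes had 1 sign in the 4 combinations whatever their p. Of the 3415 members, 2649 also had both CP1 libraries beyond the DMSO library in all 4 combinations (16.0% of tested genes, 7.79% higher and 8.18% lower). A fold of at least 1.5 in every combination was reached by 282 members (153 higher, 129 lower), and at least 2-fold by 102 (50 higher, 52 lower).

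Called separately, 8608 genes (51.9%) passed in DKO cells and 2954 (17.8%) in WT cells. Both lists held 1782 genes, of which 819 had the same direction (358 higher, 461 lower) and 963 opposite directions. The 819 were 9.51% of the DKO calls and 27.7% of the WT calls, and 817 of them were members. The genes nearest the threshold were Gm26803, a predicted gene just inside (edgeR adjusted p = 0.049994, mean log2 fold change 1.17), and Med29, a Mediator subunit just outside (edgeR adjusted p = 0.050035, mean log2 fold change -0.22). The call of Gm26803 was lost on leaving out any 1 of 9 libraries, all but repeat 2 of DKO CP1 at 4 days, repeat 1 of WT CP1 at 2 days and WT DMSO at 2 days. The even split between directions depends on the scale. When TPM was rescaled without the ribosomal RNA and miRNA genes, an alternative added after seeing the data, the median over all genes moved to 0.16 on the log2 scale, 79.3% of calls were higher against 46.0% here, and 4795 genes met the rule (against 3415), 87.8% of them higher against 50.5% here. On that scale 25.4% of the genes tested met the rule higher and 3.53% lower, the background for every count given on it below. Of the 3412 members in that table, 3265 kept their direction. With limma on TPM as deposited, 58.3% of calls and 45.1% of the genes that met the rule were higher. Without the 3 WT CP1 libraries rich in ribosomal RNA, 1965 genes met the rule (5.03% of tested genes higher and 6.46% lower), 1437 of them among the 3415, and limma on TPM gave 2176. Leaving out those 3 WT CP1 libraries left no WT CP1 library of 4 days and 1 of 2 days. The rule then lacked the combination of WT cells and 4 days, here and in the list counts below. All fold changes below are relative to the edgeR scale.

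**Figure D1:**
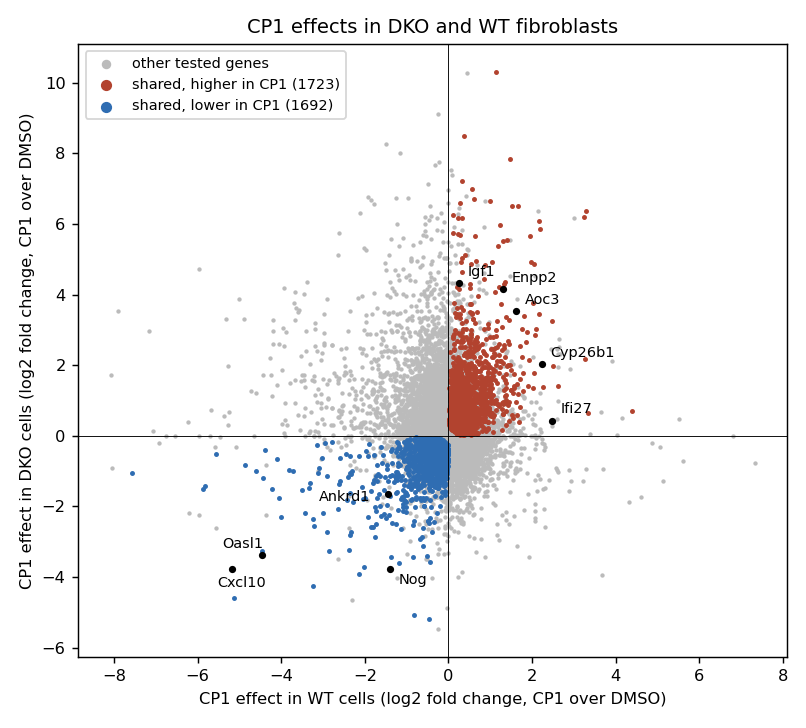
Each point is 1 of 16595 tested genes, with the CP1 effect in WT cells on the x axis and in DKO cells on the y axis (both log2 fold change, CP1 over DMSO). The 1723 members higher with CP1 (red) and the 1692 lower (blue) fill the upper right and lower left, many of them close to the y axis, where the WT effect is small.

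The genes described for the size of their response were picked among members whose CP1 and DMSO libraries did not overlap in any combination, so the lack of overlap in them is a description. Among them, the genes higher with CP1 included 2 of retinoic acid metabolism. Cyp26b1 encodes the enzyme that clears retinoic acid. Cyp26b1 had 238 and 261 CPM in the DKO CP1 libraries of 4 days and 217 and 219 CPM in those of 2 days, against 54.9 and 58.8 CPM in the DKO DMSO libraries of 4 and 2 days. In WT cells it had 89.8 and 86.5 CPM with CP1 for 4 days and 53.6 and 50.8 CPM with CP1 for 2 days, against 14.0 and 14.7 CPM with DMSO for 4 and 2 days. Every CP1 library was above every DMSO library of its genotype, with a mean log2 fold change 2.13, adjusted p = 1.6e-07 by edgeR, SE 0.11. It is ENSMUSG00000063415.12, mm10 chromosome 6, 84571414 to 84593908, minus strand. Dhrs3, which turns retinal back into retinol, averaged 9.13 ± 0.424 CPM in DKO CP1 libraries, 3.85 ± 0.400 CPM in DKO DMSO libraries, 24.3 ± 1.25 CPM in WT CP1 libraries and 14.1 ± 0.408 CPM in WT DMSO libraries (SD, n = 4 CP1 and 2 DMSO libraries per genotype over both days, as for the means below), a mean log2 fold change of 1.01 (adjusted p = 1.2e-06 by edgeR, SE 0.08). Of 12 tested genes of the retinoic acid list (13 in all), 5 were members higher with CP1 (among them Aldh1a3, Crabp1, Cyp26b1 and Dhrs3), a share of 41.7% against 10.4% of all tested genes. Aldh1a3 makes retinoic acid, while Crabp1 binds it. Cyp26a1, another clearing enzyme, was the 1 member lower with CP1, with 0.783 and 1.22 CPM in DKO CP1 and DMSO libraries and 0.318 and 5.44 CPM in WT CP1 and DMSO libraries.

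Enpp2 encodes autotaxin, the secreted enzyme that makes lysophosphatidic acid. Enpp2 had 702 and 724 CPM in the DKO CP1 libraries of 4 days and 361 and 359 CPM in those of 2 days, against 35.5 and 22.8 CPM in the DKO DMSO libraries of 4 and 2 days. The WT libraries held 881 and 955 CPM with CP1 for 4 days and 715 and 709 CPM with CP1 for 2 days, against 318 and 334 CPM with DMSO for 4 and 2 days. Its levels did not overlap between CP1 and DMSO libraries within a genotype, and it moved more in DKO cells (mean log2 fold change 2.73, adjusted p = 8.9e-10 by edgeR, SE 0.08). Gsta4, a glutathione transferase that clears lipid aldehydes, had effects of 1.52 and 1.70 in DKO cells at 4 and 2 days, and 1.51 and 1.90 in WT cells. Gsta4 had 30.5 and 31.8 CPM in the DKO CP1 libraries of 4 days and 35.5 and 38.6 CPM in those of 2 days, against 10.9 and 11.4 CPM in the DKO DMSO libraries of 4 and 2 days. WT values were 18.9 and 20.2 CPM with CP1 for 4 days and 28.5 and 27.8 CPM with CP1 for 2 days, against 6.89 and 7.53 CPM with DMSO for 4 and 2 days. The CP1 libraries were all above the DMSO libraries of their genotype (mean log2 fold change 1.66, adjusted p = 2.0e-08 by edgeR, SE 0.08). Plekha6, a PH-domain protein, followed the same pattern. Plekha6 had 42.8 and 47.4 CPM in the DKO CP1 libraries of 4 days and 45.3 and 46.6 CPM in those of 2 days, against 10.00 and 13.4 CPM in the DKO DMSO libraries of 4 and 2 days. Among WT libraries it had 36.1 and 37.9 CPM with CP1 for 4 days and 40.6 and 42.2 CPM with CP1 for 2 days, against 15.6 and 13.9 CPM with DMSO for 4 and 2 days. Again no CP1 library reached down to a DMSO library (mean log2 fold change 1.69, adjusted p = 2.0e-08 by edgeR, SE 0.08).

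Other members with a large rise in every combination covered varied roles. Aoc3, an amine oxidase of the cell surface, averaged 12.5 ± 3.52 CPM in DKO CP1 libraries, 1.05 ± 0.244 CPM in DKO DMSO libraries, 18.3 ± 2.80 CPM in WT CP1 libraries and 5.94 ± 1.14 CPM in WT DMSO libraries (SD; n = 4 CP1 and 2 DMSO libraries). Its mean log2 fold change was 2.57 (adjusted p = 5.5e-07 by edgeR, SE 0.18). Deptor, an inhibitor of mTOR, rose by 1.13 (adjusted p = 5.0e-06 by edgeR, SE 0.10) and Sned1, a matrix protein, by 1.11 (adjusted p = 9.9e-06 by edgeR, SE 0.10) on the log2 scale. Adgrb2, an adhesion receptor, rose by 1.38 (adjusted p = 5.1e-06 by edgeR, SE 0.13), and Plekhg4, a guanine nucleotide exchange factor, rose by 1.26 (adjusted p = 4.0e-06 by edgeR, SE 0.11). Zfr2, a zinc finger protein, rose by 1.32 (adjusted p = 8.7e-06 by edgeR, SE 0.13). 

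**Figure D2:**
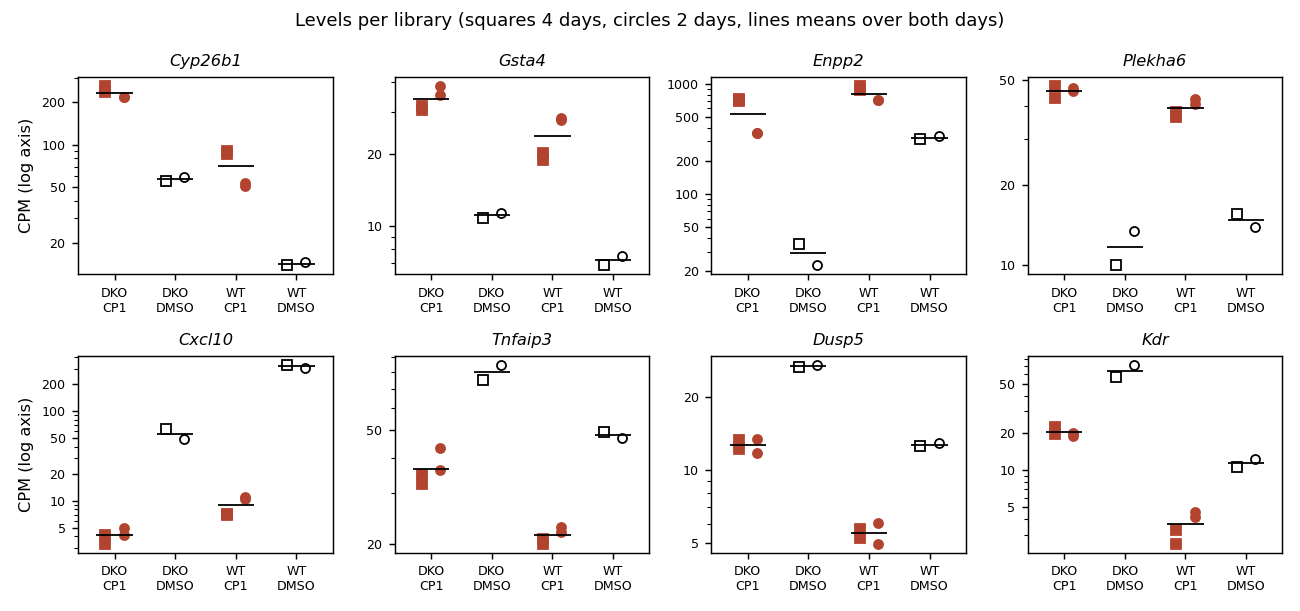
Levels of 8 members in each library (CPM on a log axis), with DKO left of WT and CP1 (red) left of DMSO (open); squares are 4 days, circles 2 days, and lines are means over both days. The upper 4 genes are higher and the lower 4 are lower in CP1 libraries of both genotypes.

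Kdr, the VEGF receptor gene, was among the members with the largest fall. Kdr had 22.4 and 19.8 CPM in the DKO CP1 libraries of 4 days and 20.1 and 18.8 CPM in those of 2 days, against 56.8 and 71.3 CPM in the DKO DMSO libraries of 4 and 2 days. WT cells had 2.54 and 3.27 CPM with CP1 for 4 days and 4.56 and 4.20 CPM with CP1 for 2 days, against 10.6 and 12.3 CPM with DMSO for 4 and 2 days. All CP1 libraries were below the DMSO libraries of their genotype (mean log2 fold change -1.66, adjusted p = 7.5e-08 by edgeR, SE 0.09). The endothelial marker list, to which Kdr belongs, summed to 22.2 to 24.1 CPM in DKO CP1 against 58.6 to 73.9 CPM in DKO DMSO libraries, and to 11.9 to 15.6 CPM in WT CP1 against 24.1 to 28.3 CPM in WT DMSO libraries. Kdr made up most of the DKO sums: without it the list summed to 1.67 to 3.94 CPM in DKO CP1 against 1.87 to 2.56 CPM in DKO DMSO libraries, and to 9.22 to 11.0 CPM in WT CP1 against 13.52 to 16.0 CPM in WT DMSO libraries. The defining markers Pecam1 and Cdh5 were near 0 everywhere, with at most 0.511 and 0.535 CPM in any library. Nog, a secreted inhibitor of BMP signals, fell further in DKO cells, with effects of -4.05 and -3.51 in DKO cells at 4 and 2 days, and -1.34 and -1.45 in WT cells (mean log2 fold change -2.59, adjusted p = 1.7e-08 by edgeR, SE 0.12). Serping1, the C1 complement inhibitor, averaged 0.846 ± 0.302 CPM in DKO CP1 libraries, 3.35 ± 0.196 CPM in DKO DMSO libraries, 75.1 ± 4.56 CPM in WT CP1 libraries and 235 ± 2.46 CPM in WT DMSO libraries (SD), with effects of -1.93 and -2.03 in DKO cells at 4 and 2 days, and -1.70 and -1.59 in WT cells (mean log2 fold change -1.81, adjusted p = 2.1e-07 by edgeR, SE 0.12). Coch, a secreted protein known from the inner ear, fell by a mean log2 of 1.77 (adjusted p = 1.5e-07 by edgeR, SE 0.11) and Lipg, endothelial lipase, fell by 1.57 (adjusted p = 1.1e-07 by edgeR, SE 0.09). Serpinb9b, a serpin, fell by 1.91 (adjusted p = 6.3e-08 by edgeR, SE 0.10). Arhgap36, which inhibits protein kinase A, had effects of -3.33 and -3.16 in DKO cells at 4 and 2 days, and -3.56 and -1.22 in WT cells (mean -2.81, adjusted p = 3.8e-04 by edgeR, SE 0.30).

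**Figure D3:**
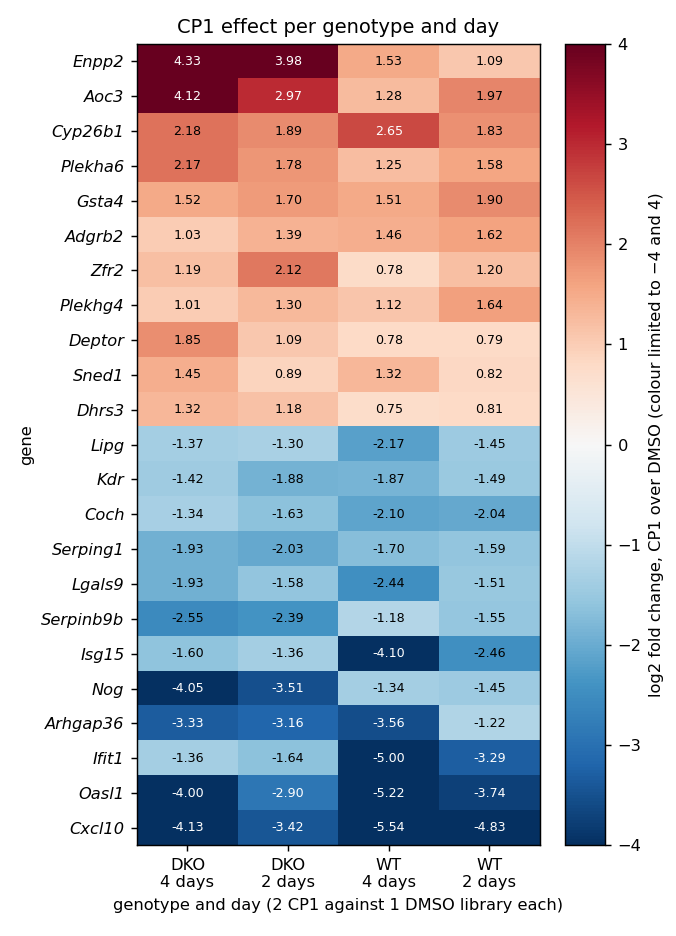
CP1 effect (log2 fold change, CP1 over DMSO) of 23 named members with the largest smallest effect, 11 higher and 12 lower, in DKO cells at 4 and 2 days and WT cells at 4 and 2 days (columns). All 4 cells of a row have the same sign because the rule asks for it; the sizes differ most for Ifit1, Enpp2 and Aoc3.

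The target genes of YAP, TAZ and TEAD are the genes that the inhibited proteins are known to activate. Of 27 listed targets, all tested, 13 were members lower with CP1 (48.1%, against 10.2% of all tested genes) and 2 were members higher with CP1 (Nt5e and Rbms3; 7.41% against 10.4%). The median mean log2 fold change of the list was -0.40, beside 0.01 over all tested genes. The lower members were Ajuba, Amotl2, Ankrd1, Axl, Ccn2, Dlc1, Fjx1, Gadd45b, Lgals3, Myof, Nuak2, Ptpn14 and Wwc1. On the rescaled TPM the counts were 9 lower and 4 higher, and without the 3 WT CP1 libraries rich in ribosomal RNA they were 12 and 1.

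The 250 bases before the start of 3 of these genes are shown because each holds the TEAD letters GGAATG, searched on both strands and printed in capitals (CATTCC where the match is on the other strand). The sequences are from RefSeq on GRCm38.p6, 5′ to 3′ along the gene: Ankrd1 chr19:36119845-36120094 (minus strand), Amotl2 chr9:102717554-102717803 (plus strand) and Axl chr7:25788734-25788983 (minus strand).
Ankrd1: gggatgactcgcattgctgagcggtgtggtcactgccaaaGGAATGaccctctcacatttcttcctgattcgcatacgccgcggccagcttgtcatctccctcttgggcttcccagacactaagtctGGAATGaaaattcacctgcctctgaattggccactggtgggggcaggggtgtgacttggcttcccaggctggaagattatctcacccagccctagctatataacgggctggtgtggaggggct
Amotl2: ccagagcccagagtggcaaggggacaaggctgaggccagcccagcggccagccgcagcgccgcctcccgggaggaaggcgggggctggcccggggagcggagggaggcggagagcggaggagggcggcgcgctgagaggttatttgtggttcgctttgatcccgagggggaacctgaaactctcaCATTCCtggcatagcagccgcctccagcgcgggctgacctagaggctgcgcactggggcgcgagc
Axl: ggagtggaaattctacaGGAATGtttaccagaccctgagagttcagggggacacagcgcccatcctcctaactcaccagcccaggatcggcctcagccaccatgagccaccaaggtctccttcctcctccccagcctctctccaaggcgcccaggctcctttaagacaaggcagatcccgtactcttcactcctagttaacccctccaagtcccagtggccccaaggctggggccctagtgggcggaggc
Ankrd1 holds 2 such matches and Amotl2 and Axl 1 each. The same letters occur in 10.8% of the windows of tested genes (11545 of 16589 symbols had a window), so a match is a description of the sequence only. They occur in 10.3% of the windows of members higher with CP1 and 11.4% of those lower with CP1. Windows were found for 2517 of the 3415 members, and with 26.3% of members lacking one these shares were not tested. Windows were matched by symbol or, failing that, by a RefSeq synonym, so some can belong to another gene. The window taken for Cdh1, another member, lies on chromosome 10, whereas Cdh1 lies on chromosome 8. All window shares given here and below include such windows.

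Ankrd1, a muscle and fibroblast co-factor, had the largest fall of the listed targets. Ankrd1 had 15.7 and 15.1 CPM in the DKO CP1 libraries of 4 days and 17.4 and 13.9 CPM in those of 2 days, against 49.0 and 47.6 CPM in the DKO DMSO libraries of 4 and 2 days. In WT cells it had 0.269 and 0.584 CPM with CP1 for 4 days and 0.348 and 0.583 CPM with CP1 for 2 days, against 1.62 and 0.832 CPM with DMSO for 4 and 2 days. WT levels were below 2 CPM and DKO levels above, and CP1 and DMSO libraries did not overlap within a genotype and day (mean log2 fold change -1.54, adjusted p = 4.0e-05 by edgeR, SE 0.19). Amotl2, an angiomotin that binds YAP, is much more abundant. Amotl2 had 814 and 785 CPM in the DKO CP1 libraries of 4 days and 828 and 772 CPM in those of 2 days, against 1252 and 1378 CPM in the DKO DMSO libraries of 4 and 2 days. The WT libraries held 248 and 238 CPM with CP1 for 4 days and 235 and 243 CPM with CP1 for 2 days, against 326 and 325 CPM with DMSO for 4 and 2 days. All CP1 libraries were below the DMSO libraries of their genotype (mean log2 fold change -0.58, adjusted p = 2.4e-06 by edgeR, SE 0.05). Axl, a receptor tyrosine kinase, gave the same order. Axl had 709 and 724 CPM in the DKO CP1 libraries of 4 days and 676 and 707 CPM in those of 2 days, against 1227 and 1542 CPM in the DKO DMSO libraries of 4 and 2 days. WT values were 619 and 615 CPM with CP1 for 4 days and 648 and 643 CPM with CP1 for 2 days, against 967 and 959 CPM with DMSO for 4 and 2 days. Its effects were -0.78 and -1.16 in DKO cells at 4 and 2 days, and -0.65 and -0.57 in WT cells (mean log2 fold change -0.79, adjusted p = 9.0e-07 by edgeR, SE 0.06). Ccn2, the matricellular protein CTGF, had a smaller effect in WT cells at 4 days. Ccn2 had 87.8 and 86.7 CPM in the DKO CP1 libraries of 4 days and 89.1 and 84.7 CPM in those of 2 days, against 193 and 169.8 CPM in the DKO DMSO libraries of 4 and 2 days. Among WT libraries it had 54.4 and 54.0 CPM with CP1 for 4 days and 36.5 and 34.3 CPM with CP1 for 2 days, against 61.6 and 63.1 CPM with DMSO for 4 and 2 days. The WT CP1 libraries of 4 days lay just below their DMSO library (mean log2 fold change -0.79, adjusted p = 8.8e-06 by edgeR, SE 0.08).

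Dlc1, a GTPase-activating protein, and Wwc1, the Hippo scaffold KIBRA, fell mainly in DKO cells. Dlc1 effects were -1.27 and -1.55 in DKO cells at 4 and 2 days, and -0.35 and -0.23 in WT cells (mean -0.85, adjusted p = 1.5e-07 by edgeR, SE 0.05). Wwc1 effects were -1.16 and -1.70 in DKO cells at 4 and 2 days, and -0.25 and -0.38 in WT cells (mean -0.88, adjusted p = 1.6e-06 by edgeR, SE 0.07). Ccn1, another matricellular target, was called lower on average but had a positive effect in WT cells at 4 days, with effects of -0.71 and -0.24 in DKO cells at 4 and 2 days, and 0.24 and -0.03 in WT cells, and so was no member; its mean effect was -0.19 (edgeR adjusted p = 0.046) and turned to 0.02 on the rescaled TPM. Its call was lost on leaving out any 1 of 8 libraries (edgeR adjusted p up to 0.3, without the WT DMSO library of 2 days), the exceptions being repeat 1 of DKO CP1 at 2 days, DKO DMSO at 2 days, repeat 1 of WT CP1 at 4 days and WT DMSO at 4 days.

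Of 8 tested genes for YAP, TAZ, TEAD proteins and cofactors (10 listed), 3 were members lower with CP1 (37.5% against 10.2%) and none a member higher with CP1. Tead4 averaged 18.0 ± 1.75 CPM in DKO CP1 libraries, 42.2 ± 0.858 CPM in DKO DMSO libraries, 14.6 ± 1.37 CPM in WT CP1 libraries and 17.7 ± 0.388 CPM in WT DMSO libraries (SD), a mean log2 fold change of -0.76 (adjusted p = 4.7e-06 by edgeR, SE 0.07). Vgll4, which competes with YAP for TEAD, fell by 0.66 (adjusted p = 2.7e-05 by edgeR, SE 0.08) on the log2 scale, and Yap1 by 0.26 (adjusted p = 0.012 by edgeR, SE 0.07). Yap1 effects were -0.02 and -0.61 in DKO cells at 4 and 2 days, and -0.19 and -0.18 in WT cells. The call of Yap1 was lost without either WT DMSO library and without the 3 WT CP1 libraries rich in ribosomal RNA (edgeR adjusted p = 0.19). It was also lost with limma on TPM (-0.19, adjusted p = 0.18) and on the rescaled TPM (-0.04, adjusted p = 0.62 by limma). Tead1, Tead3 and Wwtr1, which encodes TAZ, did not pass for the mean effect, with values of -0.16, 0.02 and -0.12 (edgeR adjusted p = 0.11, 0.8 and 0.066). Tead2 was called (-0.19, adjusted p = 0.025 by edgeR, SE 0.06) but had no single sign, and its call was lost without either WT CP1 library of 4 days, the WT DMSO library of 4 days or the DKO DMSO library of 2 days (edgeR adjusted p = 0.056 to 0.21). Lats2 did not pass (-0.12, adjusted p = 0.13 by edgeR, SE 0.06), and Lats1 was called (0.37, adjusted p = 0.0016 by edgeR, SE 0.07) but had opposite signs in DKO and WT cells. Mean effects of Tead1, Tead2, Lats2 and Wwtr1 turned positive on the rescaled TPM. Among 24 Hippo kinases and regulators, 5 were members lower with CP1 (Amot, Amotl2, Ptpn14, Wwc1 and Wwc2; 20.8% against 10.2%) and 3 higher (Mob1b, Stk3 and Taok2; 12.5% against 10.4%), counts that became 2 and 4 on the rescaled TPM.

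**Figure D4:**
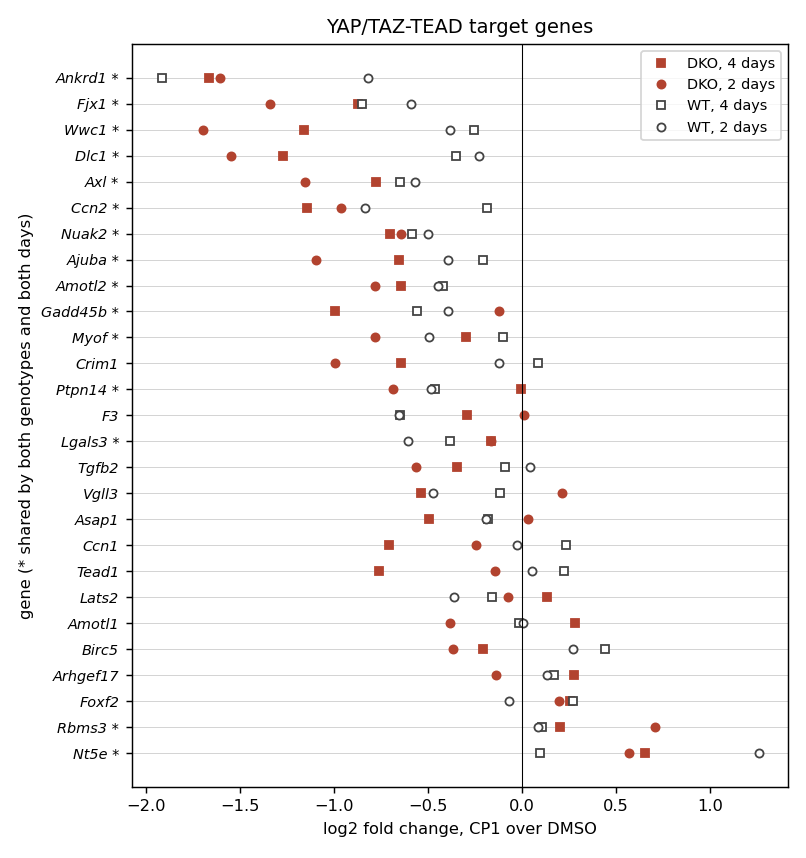
CP1 effect (log2 fold change, CP1 over DMSO) of the 27 listed YAP/TAZ-TEAD targets, 4 points per gene for DKO (red) and WT (open) cells at 4 days (squares) and 2 days (circles); stars mark the members. Of the starred genes 13 lie left of 0 at all 4 points and 2 (Rbms3 and Nt5e) right of 0.

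Of 34 interferon-stimulated genes, all tested, 12 were called higher and 4 lower in DKO cells (background 24.2% and 27.6%), while 1 was called higher and 33 lower in WT cells (background 7.50% and 10.3%). The mean effect was called lower for 25 genes (background 22.6%). Of these, 6 were members lower with CP1 (Ifih1, Ifit1, Irf7, Isg15, Oasl1 and Zbp1), 17.6% of the list against 10.2% of all tested genes. Only 1 gene was a member higher with CP1 (Ifi27; 2.94% against 10.4%). Ifih1 encodes the double-stranded RNA sensor MDA5, Ifit1 a protein that binds viral RNA, Isg15 a ubiquitin-like protein and Oasl1 an oligoadenylate synthetase relative. Isg15 had 15.5 and 14.3 CPM in the DKO CP1 libraries of 4 days and 20.2 and 16.6 CPM in those of 2 days, against 45.4 and 47.1 CPM in the DKO DMSO libraries of 4 and 2 days. WT cells had 54.2 and 50.4 CPM with CP1 for 4 days and 161 and 162 CPM with CP1 for 2 days, against 895 and 889 CPM with DMSO for 4 and 2 days. The levels in DKO cells were far below those in WT cells under the same treatment, and the fold was smaller in DKO cells (DKO minus WT 1.87, adjusted p = 0.019 by edgeR; mean log2 fold change -2.41, adjusted p = 2.2e-04 by edgeR, SE 0.23). Ifit1 effects were -1.36 and -1.64 in DKO cells at 4 and 2 days, and -5.00 and -3.29 in WT cells. Oasl1 had 0.809 CPM in DKO CP1 and 8.11 CPM in DKO DMSO libraries, and 7.18 CPM in WT CP1 and 142 CPM in WT DMSO libraries (means; mean log2 fold change -3.91, adjusted p = 4.6e-05 by edgeR, SE 0.30). Ifih1 fell by 2.00 (adjusted p = 1.2e-05 by edgeR, SE 0.15) on the log2 scale. Ifi27 went the other way, with effects of 0.34 and 0.53 in DKO cells at 4 and 2 days, and 2.33 and 2.64 in WT cells (mean 1.46, adjusted p = 1.1e-08 by edgeR, SE 0.06).

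Windows of the same length before 3 of the genes that fell carry the letters of the interferon-stimulated response element, GAAA repeated after any 2 bases (TTTC on the other strand), again in capitals: Cxcl10 chr5:92348890-92349139 (minus strand), Isg15 chr4:156200819-156201068 (minus strand) and Ifit1 chr19:34640639-34640888 (plus strand), RefSeq on GRCm38.p6.
Cxcl10: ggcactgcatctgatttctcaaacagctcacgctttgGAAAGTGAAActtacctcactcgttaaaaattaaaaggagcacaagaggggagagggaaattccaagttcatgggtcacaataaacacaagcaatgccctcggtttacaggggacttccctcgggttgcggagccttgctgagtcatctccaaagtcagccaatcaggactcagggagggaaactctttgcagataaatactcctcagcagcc
Isg15: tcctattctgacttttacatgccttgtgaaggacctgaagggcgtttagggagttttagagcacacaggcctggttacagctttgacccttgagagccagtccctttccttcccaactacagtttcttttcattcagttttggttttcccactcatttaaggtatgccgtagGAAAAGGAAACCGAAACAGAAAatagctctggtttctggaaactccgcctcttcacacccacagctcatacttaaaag
Ifit1: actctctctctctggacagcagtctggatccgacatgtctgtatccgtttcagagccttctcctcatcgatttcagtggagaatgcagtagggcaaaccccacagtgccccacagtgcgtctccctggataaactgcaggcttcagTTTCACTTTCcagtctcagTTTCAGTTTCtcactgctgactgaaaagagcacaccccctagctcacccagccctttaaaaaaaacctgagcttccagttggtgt
Cxcl10 has 1 match, Ifit1 has 2, and Isg15 has 3 that overlap each other. These letters occur in 1.98% of the windows of members higher with CP1, in 4.07% of those lower with CP1 and in 2.66% of the windows of all tested genes.

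Of 24 tested NF-kB targets and cytokines (25 listed), 10 were members lower with CP1 (Ccl5, Csf1, Cxcl10, Cxcl2, Icam1, Lif, Nfkb1, Nfkb2, Tnfaip3 and Traf1; 41.7% against 10.2%) and 1 higher (Cxcl12). The median mean log2 fold change was -0.17, over list medians of 0.23 and 0.26 in DKO cells at 4 and 2 days, and -0.82 and -0.96 in WT cells. In DKO cells 11 of the list were called higher and 9 lower (background 24.2% and 27.6%), and in WT cells 19 were called lower (background 10.3%). Cxcl10 encodes a chemokine that attracts T cells and is induced by interferon and NF-kB. Cxcl10 had 3.31 and 4.14 CPM in the DKO CP1 libraries of 4 days and 4.12 and 4.95 CPM in those of 2 days, against 64.1 and 48.7 CPM in the DKO DMSO libraries of 4 and 2 days. In WT cells it had 6.96 and 7.16 CPM with CP1 for 4 days and 10.5 and 11.1 CPM with CP1 for 2 days, against 329.7 and 307 CPM with DMSO for 4 and 2 days. Each CP1 library was below every DMSO library of its genotype, and this was the largest fall among the named members (mean log2 fold change -4.48, adjusted p = 1.2e-08 by edgeR, SE 0.12). Tnfaip3 encodes A20, which ends NF-kB signalling. Tnfaip3 had 32.3 and 34.9 CPM in the DKO CP1 libraries of 4 days and 36.3 and 43.2 CPM in those of 2 days, against 75.1 and 84.7 CPM in the DKO DMSO libraries of 4 and 2 days. The WT libraries held 19.98 and 20.7 CPM with CP1 for 4 days and 22.9 and 22.0 CPM with CP1 for 2 days, against 49.2 and 47.0 CPM with DMSO for 4 and 2 days. Its effects were -1.17 and -1.09 in DKO cells at 4 and 2 days, and -1.27 and -1.07 in WT cells (mean log2 fold change -1.15, adjusted p = 4.1e-08 by edgeR, SE 0.06). Csf1, the macrophage growth factor, fell by 0.72 (adjusted p = 3.0e-07 by edgeR, SE 0.05) on the log2 scale, with effects of -0.96 and -1.01 in DKO cells at 4 and 2 days, and -0.36 and -0.53 in WT cells. Lgals9, a galectin, fell by 1.88 (adjusted p = 4.3e-06 by edgeR, SE 0.12). Macrophage markers summed to 8.77 to 15.2 CPM in DKO CP1 against 10.4 to 11.0 CPM in DKO DMSO libraries, and to 4.49 to 5.95 CPM in WT CP1 against 5.11 to 6.598 CPM in WT DMSO libraries. Ptprc, a marker of all leukocytes, was at most 0.116 CPM in any library.

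The p53 list had more members lower than higher with CP1. Of 25 p53 targets, 14 were members lower with CP1 (56.0% against 10.2%), among them Cdkn1a, Mdm2, Bax, Pmaip1 and Zmat3, and 2 were higher (Rrm2b and Sesn1). The list's median mean log2 fold change was -0.35. Without the 3 WT CP1 libraries rich in ribosomal RNA 9 members were lower and 1 higher, and on the rescaled TPM 7 lower and 4 higher. Aen is a nuclease of apoptosis. Aen had 48.6 and 48.2 CPM in the DKO CP1 libraries of 4 days and 37.5 and 41.3 CPM in those of 2 days, against 90.0 and 105 CPM in the DKO DMSO libraries of 4 and 2 days. WT values were 30.4 and 32.1 CPM with CP1 for 4 days and 26.5 and 29.5 CPM with CP1 for 2 days, against 44.4 and 43.5 CPM with DMSO for 4 and 2 days. CP1 libraries were below the DMSO library of their genotype and day throughout (mean log2 fold change -0.86, adjusted p = 2.2e-06 by edgeR, SE 0.07). Perp, a membrane protein of cell junctions and apoptosis, fell by 0.71 (adjusted p = 6.2e-06 by edgeR, SE 0.07) and Phlda3, an inhibitor of AKT, by 0.47 (adjusted p = 1.3e-05 by edgeR, SE 0.05) on the log2 scale.

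Of 20 genes of the unfolded protein response, 9 were members lower with CP1 (45.0%; Calr, Canx, Creld2, Dnajb11, Hspa5, Hyou1, Pdia3, Pdia4 and Pdia6, chaperones and folding enzymes of the endoplasmic reticulum) and 1 was higher (Herpud1, of the degradation branch). On the rescaled TPM 3 were lower and 3 higher (15% each, against 3.53% lower and 25.4% higher of all genes on that scale). Pdia6, a disulphide isomerase, is an example. Pdia6 had 313 and 303 CPM in the DKO CP1 libraries of 4 days and 305 and 306 CPM in those of 2 days, against 466 and 498 CPM in the DKO DMSO libraries of 4 and 2 days. Among WT libraries it had 283 and 276 CPM with CP1 for 4 days and 308 and 313 CPM with CP1 for 2 days, against 426 and 418 CPM with DMSO for 4 and 2 days. The shift was small but without overlap in each combination (mean log2 fold change -0.59, adjusted p = 1.5e-06 by edgeR, SE 0.05). Hspa5, the chaperone BiP, had effects of -0.45 and -0.58 in DKO cells at 4 and 2 days, and -0.35 and -0.54 in WT cells (mean -0.48, adjusted p = 9.7e-05 by edgeR, SE 0.07), and Calr, calreticulin, fell by 0.43 (adjusted p = 9.9e-05 by edgeR, SE 0.06) on the log2 scale. Of 28 genes of the integrated stress response, 10 were members lower with CP1 (35.7%; Aldh18a1, Asns, Atf4, Chac1, Gdf15, Phgdh, Sars, Sesn2, Shmt2 and Slc7a5) and 2 higher (Herpud1 and Pycr1), against 3 and 2 on the rescaled TPM. Phgdh, the first enzyme of serine synthesis, averaged 378 ± 17.1 CPM in DKO CP1 libraries, 943 ± 155 CPM in DKO DMSO libraries, 167 ± 19.4 CPM in WT CP1 libraries and 195 ± 5.49 CPM in WT DMSO libraries (SD; mean log2 fold change -0.78, adjusted p = 2.0e-06 by edgeR, SE 0.06). Slc7a5, an amino acid transporter, had effects of -0.88 and -1.09 in DKO cells at 4 and 2 days, and -0.01 and -0.04 in WT cells, so that its WT effects were close to 0. Sars, a seryl-tRNA synthetase, fell by 0.43 (adjusted p = 1.8e-05 by edgeR, SE 0.05) on the log2 scale.

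Dusp5, a phosphatase that is induced by ERK and switches ERK off, fell in both genotypes. Dusp5 had 12.1 and 13.3 CPM in the DKO CP1 libraries of 4 days and 11.7 and 13.4 CPM in those of 2 days, against 26.6 and 27.0 CPM in the DKO DMSO libraries of 4 and 2 days. WT cells had 5.73 and 5.25 CPM with CP1 for 4 days and 4.95 and 6.03 CPM with CP1 for 2 days, against 12.5 and 12.9 CPM with DMSO for 4 and 2 days. CP1 and DMSO libraries of a genotype did not overlap (mean log2 fold change -1.15, adjusted p = 3.6e-07 by edgeR, SE 0.08). Of 15 ERK feedback genes, 4 were members lower with CP1 (Dusp5, Dusp6, Hbegf and Phlda1; 26.7% against 10.2%) and 1 higher (Spry1; 6.67% against 10.4%). Phlda1 fell by 0.87 (adjusted p = 2.2e-05 by edgeR, SE 0.10) and Spry1, a receptor kinase inhibitor, rose by 0.71 (adjusted p = 1.6e-04 by edgeR, SE 0.10) on the log2 scale, Spry1 with WT effects of 0.27 and 0.09 at 4 and 2 days. Of 20 immediate early genes, 6 were members lower with CP1 (Fosl1, Jun, Junb, Klf4, Klf6 and Myc; 30.0% against 10.2%) and none a member higher, and on the rescaled TPM 2 were lower. The medians of that list were -0.17 and 0.32 in DKO cells at 4 and 2 days, and -0.56 and -0.65 in WT cells. Myc had effects of -0.52 and -0.25 in DKO cells at 4 and 2 days, and -0.86 and -1.20 in WT cells (mean -0.71, adjusted p = 3.9e-06 by edgeR, SE 0.06), Klf6 fell by 0.54 (adjusted p = 3.1e-05 by edgeR, SE 0.06) and Junb by 0.47 (adjusted p = 2.0e-04 by edgeR, SE 0.07). Of 17 TGF-beta targets, 4 were members lower with CP1 (among them Cdkn2b, Pmepa1 and Smad7; 23.5% against 10.2%), against 2 lower and 2 higher on the rescaled TPM. Pmepa1, a feedback inhibitor of TGF-beta, fell by 0.72 (adjusted p = 2.3e-05 by edgeR, SE 0.08).

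Among 14 tested Wnt targets (18 listed), 4 were members higher with CP1 (Apcdd1, Dkk2, Kremen1 and Nkd1; 28.6% against 10.4%) and 1 was lower (Myc, also an immediate early gene). The members that rose are feedback inhibitors or antagonists of the Wnt pathway, or receptors of such antagonists. Nkd1, which binds Dishevelled, averaged 9.63 ± 2.55 CPM in DKO CP1 libraries, 1.78 ± 0.201 CPM in DKO DMSO libraries, 5.29 ± 2.12 CPM in WT CP1 libraries and 2.92 ± 0.647 CPM in WT DMSO libraries (SD), a mean log2 fold change of 1.62 (adjusted p = 2.3e-06 by edgeR, SE 0.14).

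Lysosome and autophagy genes gave 6 members lower with CP1 of 24 tested (Ctsd, Gabarapl1, Hexa, Lamp1, Sqstm1 and Wipi1; 25% against 10.2%) and none higher, and 4 without the 3 WT CP1 libraries and 3 (with 1 higher) on the rescaled TPM. The medians of the list were 0.19 and 0.13 in DKO cells at 4 and 2 days, and -0.48 and -0.28 in WT cells. Gabarapl1, which tethers cargo to autophagosomes, fell by 0.60 (adjusted p = 2.9e-06 by edgeR, SE 0.05), Sqstm1, the cargo receptor p62, by 0.53 (adjusted p = 6.7e-06 by edgeR, SE 0.05), and Ctsd, a lysosomal protease, by 0.48 (adjusted p = 8.6e-05 by edgeR, SE 0.06) on the log2 scale. Of 17 tested genes of fatty acid synthesis, 3 were members higher with CP1 (Acsl3, Scd1 and Scd2; 17.6% against 10.4%) and none lower. Scd1 and Scd2 are stearoyl-CoA desaturases. Scd1 had 279 and 279 CPM in the DKO CP1 libraries of 4 days and 350.1 and 329 CPM in those of 2 days, against 156 and 194 CPM in the DKO DMSO libraries of 4 and 2 days. In WT cells it had 254 and 244 CPM with CP1 for 4 days and 259 and 254 CPM with CP1 for 2 days, against 164 and 160.1 CPM with DMSO for 4 and 2 days. The CP1 libraries were above the DMSO libraries of their genotype (mean log2 fold change 0.73, adjusted p = 1.8e-07 by edgeR, SE 0.05). Scd2 rose by 0.58 (adjusted p = 1.1e-04 by edgeR, SE 0.08) and Acsl3, which activates long-chain fatty acids, by 0.24 (adjusted p = 0.0032 by edgeR, SE 0.05), a call that was lost without the 3 WT CP1 libraries (log2 fold change 0.30, adjusted p = 0.056 by edgeR). Of 20 tested PPAR targets and genes of fatty acid oxidation, 3 were members lower with CP1 (Acadl, Acot2 and Plin2; 15% against 10.2%), and on the rescaled TPM 2 were lower and 4 higher. Plin2, a coat protein of lipid droplets, fell by 0.85 (adjusted p = 2.8e-07 by edgeR, SE 0.06) with effects of -1.02 and -0.80 in DKO cells at 4 and 2 days, and -0.88 and -0.73 in WT cells. Acadl, an enzyme of fatty acid oxidation, fell by 0.58 (adjusted p = 1.5e-06 by edgeR, SE 0.05). Nqo1, a quinone reductase, rose by 0.44 (adjusted p = 1.8e-04 by edgeR, SE 0.07).

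Of 30 genes of G2/M and mitosis, 8 were members higher with CP1 (26.7%; Anln, Cenpf, Hmmr, Kif11, Mki67, Nusap1, Top2a and Ttk, against 10.4%) and none lower. The medians of the list were -0.09 and -0.02 in DKO cells at 4 and 2 days, and 0.36 and 0.21 in WT cells. Kif11 had 130 and 54.4 CPM in the DKO DMSO libraries of 4 and 2 days. In the same order Nusap1 had 94.7 and 48.4 CPM, and Anln had 320 and 209 CPM. For each of these genes the 2-day DMSO library was the lowest DKO library, and the DKO effect at 2 days rests on it. No gene of the list met the rule in edgeR without the 3 WT CP1 libraries rich in ribosomal RNA, while 20 met it higher on the rescaled TPM. Kif11, a motor of the spindle, had effects of 0.59 and 1.55 in DKO cells at 4 and 2 days, and 0.45 and 0.18 in WT cells (mean 0.67, adjusted p = 0.0024 by edgeR, SE 0.13), Nusap1 rose by 0.46 (adjusted p = 0.0011 by edgeR, SE 0.09) and Anln, of the cleavage furrow, by 0.40 (adjusted p = 6.2e-04 by edgeR, SE 0.07). Without those 3 libraries the edgeR adjusted p was 0.075 for Kif11, 0.07 for Nusap1 and 0.082 for Anln, with log2 fold changes of 0.62, 0.45 and 0.32. Replication genes gave 5 members lower with CP1 of 28 (Cdt1, Chaf1b, Fen1, Mcm3 and Mcm7; 17.9% against 10.2%) and 3 higher (Ccne2, Pola1 and Slbp; 10.7% against 10.4%), and 2 lower and 7 higher on the rescaled TPM. The helicase subunits Mcm3 and Mcm7 fell by 0.38 (adjusted p = 2.3e-04 by edgeR, SE 0.06) and 0.47 (adjusted p = 1.1e-04 by edgeR, SE 0.06), and Slbp, which binds histone mRNAs, rose by 0.23 (adjusted p = 0.0013 by edgeR, SE 0.05), a call also lost without them (log2 fold change 0.25, adjusted p = 0.071 by edgeR). Of 13 genes of the mitochondrial genome, 5 were members higher with CP1 (mt-Co3, mt-Cytb, mt-Nd4l, mt-Nd5 and mt-Nd6; 38.5% against 10.4%) and none lower, 2 without the 3 WT CP1 libraries and 9 on the rescaled TPM. mt-Nd5 rose by 0.50 (adjusted p = 8.2e-05 by edgeR, SE 0.07) and mt-Nd6 by 0.55 (adjusted p = 7.4e-05 by edgeR, SE 0.07), both subunits of complex I, and mt-Cytb, of complex III, by 0.38 (adjusted p = 0.0043 by edgeR, SE 0.09). The call of mt-Cytb was lost without the 3 libraries (log2 fold change 0.23, adjusted p = 0.23 by edgeR) and without the WT DMSO library of 4 days (0.052). The counting strand is not given in the sources used here. On the mitochondrial genome mt-Nd6 (13552 to 14070, minus strand) overlaps mt-Nd5 (11742 to 13565, plus strand) only at its end. Whether reads from the opposite strand were counted for mt-Nd6 is not known.

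Of 36 collagens and matrix genes, 5 were members lower with CP1 (Col4a1, Col4a2, Col5a2, Col8a1 and Timp1) and 3 higher (Col6a3, Fbln1 and Lox), shares of 13.9% and 8.33% against 10.2% and 10.4%, and 1 and 3 on the rescaled TPM. In DKO cells 22 of this list were called higher and 5 lower (background 24.2% and 27.6%). In WT cells 0 were called higher and 20 lower (background 7.50% and 10.3%). Col5a2, a fibrillar collagen chain, fell by 0.80 (adjusted p = 1.9e-06 by edgeR, SE 0.07) on the log2 scale, with effects of -0.89 and -0.86 in DKO cells at 4 and 2 days, and -0.93 and -0.50 in WT cells. Col6a3 and Fbln1 had effects of 2.04 and 3.91 in DKO cells at 4 days, against 0.06 and 0.13 in WT cells at 4 days. Of 17 tested fibroblast markers, 6 were members higher with CP1 (Cd34, Dpt, Fap, S100a4, Thy1 and Twist1; 35.3% against 10.4%), 3 without the 3 WT CP1 libraries, and 1 lower (Vim). For 4 of the 6 higher members, both CP1 libraries also lay above the DMSO library in all 4 combinations. Dpt was not among these 4, with WT effects of 0.01 and 0.19 at 4 and 2 days. On the rescaled TPM 6 markers met the rule higher (35.3%, against 25.4% of all genes). In DKO cells 16 of the 17 markers were called higher and 1 lower (background 24.2% and 27.6%). In WT cells 1 was called higher and 5 lower (background 7.50% and 10.3%). The list medians were 1.86 and 1.23 in DKO cells at 4 and 2 days, and -0.16 and -0.04 in WT cells. Fap, Dpt and Thy1 were at or near 0 in DKO DMSO libraries. The fibroblast markers summed to 13294 to 16875 CPM in DKO CP1 against 10057 to 10542 CPM in DKO DMSO libraries, and to 14403 to 19949.9 CPM in WT CP1 against 22312 to 22669 CPM in WT DMSO libraries. Neural and glial markers summed to 117 to 126 CPM in DKO CP1 against 267 to 427 CPM in DKO DMSO libraries, and to 98.8 to 115 CPM in WT CP1 against 98.1 to 102 CPM in WT DMSO libraries. Nes held most of that sum in DKO DMSO libraries (246 to 405 CPM), and Sox10 was at 0 there. The part of these sums in the shared response was not tested.

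**Figure D5:**
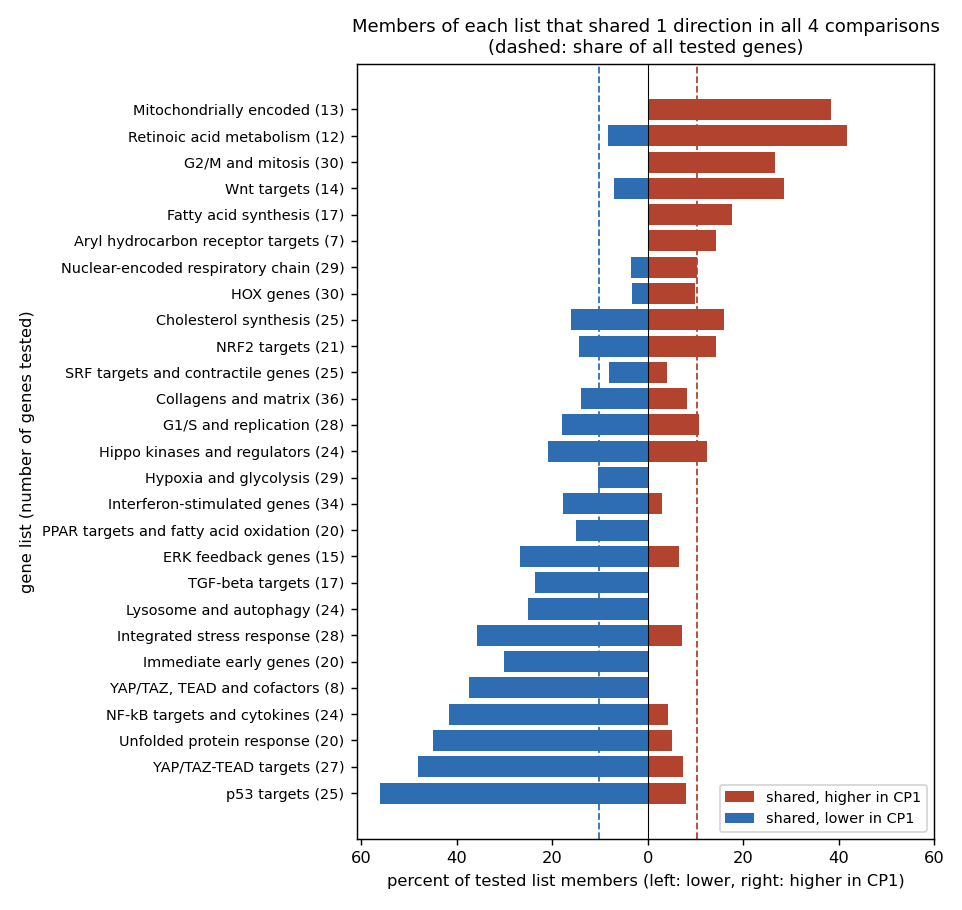
Share of each list's tested genes that were members higher with CP1 (red, right) or lower with CP1 (blue, left), in percent, with dashed lines at the shares over all tested genes (10.4% and 10.2%); numbers in brackets are genes tested. Blue bars reach farthest for p53 targets, YAP/TAZ-TEAD targets and the unfolded protein response, and red bars for retinoic acid metabolism and mitochondrially encoded genes; on the rescaled TPM, where 25.4% of all genes met the rule higher and 3.53% lower, lower members no longer outnumbered higher ones for TGF-beta targets, the unfolded protein response, Hippo regulators, contractile genes, matrix, G1/S, hypoxia and PPAR targets.

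The remaining lists can be read against 10.4% higher and 10.2% lower of all tested genes. With CP1 they gave 4 higher and 4 lower of 25 genes of cholesterol synthesis (16.0% in each direction), 3 higher and 3 lower of 21 NRF2 targets (14.3% in each direction), 1 higher and 2 lower of 25 SRF targets and contractile genes, and 0 higher and 3 lower of 29 genes of hypoxia and glycolysis. They also gave 3 higher and 1 lower of 29 nuclear genes of the respiratory chain, 3 higher and 1 lower of 30 HOX genes and 1 higher and 0 lower of 7 targets of the aryl hydrocarbon receptor. Few members need not mean few calls. SRF targets and contractile genes had 2 called higher and 21 lower in DKO cells, and 7 and 1 in WT cells. The respiratory chain list had 2 and 21 in DKO cells, and 8 and 0 in WT cells. The background was 24.2% higher and 27.6% lower in DKO cells, and 7.50% and 10.3% in WT cells.

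Whether members changed by unequal amounts in DKO and WT cells was tested with the interaction term. The rule did not use this term, but it dropped genes with opposite signs in DKO and WT cells. The share of members below is therefore shaped by the rule and is a description. The difference passed for 1319 members (38.6%), against 42.4% of all tested genes. Among these members the effect was larger in DKO cells for 1193 and larger in WT cells for 126. The same split over all tested genes was not counted. A CP1 effect was called for 51.9% of all tested genes in DKO and 17.8% in WT cells. The smallest p-values belonged to Igf1, Chl1, Fbln1 and Enpp2, all larger in DKO cells. Igf1, insulin-like growth factor 1, averaged 106 ± 34.0 CPM in DKO CP1 libraries, 5.34 ± 2.45 CPM in DKO DMSO libraries, 159 ± 9.36 CPM in WT CP1 libraries and 133 ± 3.87 CPM in WT DMSO libraries (SD). It differed between genotypes by 4.07 (DKO minus WT, edgeR adjusted p = 7.8e-10). Chl1, a neural adhesion molecule, averaged 63.0 ± 18.8 CPM in DKO CP1 libraries, 3.59 ± 2.03 CPM in DKO DMSO libraries, 149.5 ± 4.77 CPM in WT CP1 libraries and 125 ± 0.569 CPM in WT DMSO libraries (SD). For Fbln1, fibulin 1, the values were 140.4 ± 35.5 CPM in DKO CP1 libraries, 11.1 ± 0.323 CPM in DKO DMSO libraries, 350.5 ± 22.6 CPM in WT CP1 libraries and 306 ± 4.83 CPM in WT DMSO libraries (SD). In the other direction, Ifi27, Myc, Ifit1 and Cxcl10 changed more in WT cells, with DKO minus WT differences of -2.05, 0.64, 2.71 and 1.41 (edgeR adjusted p = 5.5e-08, 0.0018, 0.0078 and 0.0017). For Gsta4, Kdr, Tnfaip3, Dusp5 and Ankrd1 the difference did not pass (edgeR adjusted p = 0.64, 0.96, 0.8, 0.57 and 0.73), with estimates of -0.10 (SE 0.15), 0.02 (SE 0.18), 0.04 (SE 0.12), 0.12 (SE 0.16) and -0.19 (SE 0.39), which does not show that the effects were equal. The count of differing members was 843 without the WT DMSO library of 4 days and 293 without the 3 WT CP1 libraries.

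The CP1 effect differed between 4 and 2 days, averaged over genotypes, for 765 members (22.4%, against 21.5% of all tested genes). The 4 residual degrees of freedom of this test all came from the CP1 repeats, and each DMSO library, alone in its group, was assumed to vary like them. The difference between the DKO DMSO libraries given above enters these calls. The effect was larger at 4 days for 150 members and larger at 2 days for 615, a split that was not counted over all tested genes. Rev3l, Arhgap36, Eea1 and Lnpep had the smallest p-values. Rev3l, the catalytic subunit of a translesion polymerase, had 105 and 101 CPM in DKO CP1 libraries of 4 days and 85.9 and 78.8 CPM in those of 2 days, against 34.9 CPM in the DKO DMSO library of 4 days and 3.20 CPM in that of 2 days. The 2-day DMSO library was the lowest of the 6 DKO libraries, and WT effects of Rev3l were 0.05 and 0.22 at 4 and 2 days. Eea1, an early endosome tether, and Lnpep, an aminopeptidase of insulin-responsive vesicles, had effects of 0.78 and 0.72 in DKO cells at 4 days against 2.75 and 2.32 at 2 days. The mean CP1 effects of Rev3l, Eea1 and Lnpep lost their calls without the WT DMSO library of 4 days (log2 fold changes 1.41, 0.85 and 0.82; edgeR adjusted p = 0.087, 0.13 and 0.083) or that of 2 days (edgeR adjusted p = 0.1, 0.1 and 0.082). The call of Eea1 was also lost on leaving out any 1 WT CP1 library or repeat 2 of DKO CP1 at 2 days (log2 fold changes 0.85 to 0.91). Without the 3 WT CP1 libraries rich in ribosomal RNA, Rev3l, Eea1 and Lnpep all lost their calls (log2 fold changes 1.40, 0.84 and 0.83). Arhgap36 went the other way in WT cells, where its effect was -3.56 at 4 and -1.22 at 2 days. The 4 minus 2 day difference was 0.56 for Cyp26b1 (edgeR adjusted p = 1.5e-05), 0.39 for Enpp2 (edgeR adjusted p = 5.7e-05), -0.94 for Isg15 (edgeR adjusted p = 7.0e-10) and -0.71 for Cxcl10 (edgeR adjusted p = 2.3e-05), larger at 4 days in each. DESeq2 called 476 members for this difference and limma on TPM 77.

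Gene length, as the deposited table gives it, moved with the CP1 effect in DKO cells. Protein-coding genes with a mean log2 CPM of at least 2 were split into 5 equal groups by gene length. The median CP1 effect in the group of the longest genes (8014 bases and more) was 0.16 in DKO cells at 4 days, 0.17 in DKO cells at 2 days, -0.01 in WT cells at 4 days and -0.04 in WT cells at 2 days. In the group of the shortest genes (up to 2722 bases) it was -0.28, -0.21, 0.05 and 0.06 in the same order. Members higher with CP1 made up 14.6% of the longest and 7.54% of the shortest genes, and members lower with CP1 10.1% and 14.7%. The part of length in the shared response was not tested.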

How the data were processed

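Gene-level values of 12 total-RNA libraries of mouse embryonic fibroblasts were used. The deposited counts are whole reads per gene from featureCounts 1.5.2 on mm10, per the submitters' processing notes; the aligner and strand setting are not given in the sources used here. The deposited TPM values equal those counts over gene length, rescaled per library (checked). Groups came from sample titles.

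Counts were normalised by TMM and tested with edgeR 4.0.16 (quasi-likelihood F-test, robust, R 4.3.3), with Benjamini-Hochberg adjustment over 16595 genes kept by edgeR's filter (minimum count 10, minimum total 15). The model held 4 means of genotype and treatment and a day term per genotype (6 residual degrees of freedom). It had no term for a CP1 effect that differs between days, so such a difference counts as residual spread in its p-values. Effects per day and their difference used 8 means (4 residual degrees of freedom). The pipeline was tested on simulated data. CPM are counts scaled to TMM library sizes; totals of 16970834 to 25299262 limit precision at low CPM. Settings tried were DESeq2 1.42.0, limma 3.58.1 on log2(TPM + pseudocount), other size factors, filters and day terms, a replicate block, and leaving out libraries.

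The members and the 36 gene lists (713 symbols, 703 in the table) were chosen with earlier results of these data known. Genes were named by a rule: the 12 higher and 12 lower members with the largest smallest effect over the 4 combinations, among those with a mean log2 CPM of 2 or more whose CP1 and DMSO libraries were apart; up to 3 members per list by p; a set of 13 Hippo genes; up to 4 members by p for a difference between genotypes and between days; and the genes nearest the threshold. Other list members are named without values, and a few genes are not reported here. Promoter windows came from RefSeq tables (GRCm38.p6).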

Additional observations from a re-analysis of the deposited data

Results flagged for a closer look

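A difference of the CP1 effect between DKO and WT cells put the following genes here, from the interaction term in edgeR at an adjusted p of 0.05; all values are log2, DKO minus WT. Of the genes that rose most in all 4 combinations, the values were Enpp2 2.85, Aoc3 1.93, Plekha6 0.56, Deptor 0.68 and Dhrs3 0.47. Of those that fell most, they were Cxcl10 1.41, Ifit1 2.71, Isg15 1.87, Nog -2.38, Coch 0.61 and Serpinb9b -1.12. Genes of the YAP and TEAD lists gave Ccn1 -0.58, Ccn2 -0.54, Amotl2 -0.28, Axl -0.36, Dlc1 -1.12, Wwc1 -1.12, Vgll4 -0.70, Tead1 -0.60, Tead2 -0.41 and Tead4 -0.95. Among the deleted kinases the value was Lats1 1.10. For interferon, cytokine and retinoic acid genes the values were Ifi27 -2.05, Ifih1 2.19, Csf1 -0.54 and Cyp26a1 3.46. Stress and amino acid genes gave Aen -0.59, Perp -0.66, Phlda3 -0.55, Phgdh -1.08, Sars -0.45 and Slc7a5 -0.96. Growth factor response genes gave Phlda1 -0.85, Spry1 1.07, Myc 0.64, Junb 0.49, Pmepa1 -0.68 and Nkd1 1.60. For genes of division, mitochondria and lipid use they were Kif11 0.72, Mcm3 -0.35, Mcm7 -0.48, mt-Nd6 0.39, Acadl -0.47 and Rev3l 2.46. Matrix, adhesion and growth factor genes gave Col6a3 2.13, Fbln1 3.43, Igf1 4.07 and Chl1 3.90.

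A difference between 4 and 2 days, averaged over genotypes and tested in edgeR with 1 mean per group (adjusted p of 0.05), put these genes here; values are log2, 4 days minus 2 days. The genes that rose most had Cyp26b1 0.56, Enpp2 0.39, Deptor 0.38, Sned1 0.53 and Zfr2 -0.67. The genes that fell most had Cxcl10 -0.71, Oasl1 -1.29, Ifit1 -0.71, Isg15 -0.94, Lgals9 -0.64, Lipg -0.40 and Arhgap36 -1.26. YAP and TEAD genes had Ccn2 0.24, Wwc1 0.33, Yap1 0.29, Tead1 -0.22 and Tead3 -0.21. Interferon, stress and growth response genes had Ifi27 -0.25, Ifih1 -0.73, Aen 0.32, Calr 0.22, Phgdh 0.32, Klf6 0.33, Pmepa1 -0.44, Ctsd -0.31 and Nqo1 0.25. Genes of division, mitochondria, lipids and matrix had Kif11 -0.35, Nusap1 -0.34, Mcm3 0.24, Mcm7 0.26, mt-Cytb 0.50, mt-Nd5 0.24, Scd2 -0.40, Col5a2 -0.23, Col6a3 -0.26 and Fbln1 0.22. The members with the smallest p-values, beside Arhgap36, had Eea1 -0.91, Rev3l -1.65 and Lnpep -0.79. A positive value for a gene that fell means a smaller fall at 4 days. No explanation of these differences was tested.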

How the results depend on the processing

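The 3415 members and the 6957 genes called for the mean effect kept within 1.5 times of these counts under other size factors, no count filter, other day terms, a non-robust fit and DESeq2. With a replicate block on the CP1 repeat number they were 3266 and 6470. The correlation of same-numbered deviations ran from -0.02 to 0.05, which does not settle whether same-numbered repeats shared a culture or batch. Leaving out 1 library at a time gave 3141 to 4191 members, 5136 to 8414 calls and 843 to 1708 members with a genotype difference. Leaving out a DMSO library also removed its combination of genotype and day, so the rule then asked for 1 sign in the others only. That is an easier condition, and the highest member count came from such a run. limma on log2(TPM + 1) gave 2176 members, 4582 calls and 77 day differences. With a pseudocount of 0.1 it gave 2133, 4477 and 117. With all genes it gave 1353, 2670 and 4, and 860 genotype differences. DESeq2 gave 476 day differences. Without the 3 WT CP1 libraries over 1% ribosomal RNA and miRNA (added after seeing the data), 1965 genes met the rule, 1437 of them among the 3415, with 2562 calls and 293 genotype differences from fewer libraries. With those 3 left out, WT cells had no CP1 library of 4 days, so the rule lacked that combination. Another rule, called in each genotype with 1 direction, gave 819 genes, of which 817 were members. A stricter rule, 1.5-fold in each combination, gave 282. Of 89 named genes, at most 14 lost their call in any 1 setting. Leaving out 1 library at a time, the mean effect of Tead3 ran from -0.071 (without the DKO DMSO library of 2 days) to 0.11 (without that of 4 days); on the rescaled TPM the effects of Ccn1, Lats2, Tead1, Tead2 and Wwtr1 were 0.019, 0.073, 0.048, 0.020 and 0.085, and the cause was not tested. Depth limits mainly genes below the count filter of 10 reads.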
